A study of Mus musculus with 12 samples.

Results

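This account follows 31 genes of astrocyte identity and homeostasis in RNA of the mouse hippocampus. They were chosen by symbol as astrocyte markers and as genes of glutamate uptake, gap junctions, water and ion balance, lipid handling, secretion and metal binding, and each symbol was mapped to its Entrez gene ID in the count table. These are 31 of the 27179 gene IDs of the table, and each of the 31 was among the 17937 genes that passed the low-count filter, so no member was lost. The tissue came from 12 mice aged 3 months, 6 of them WT and 6 Nell-1+/6R littermates, and each genotype was represented by 3 females and 3 males, numbered 1 to 3 below. The 6R allele carries a chemically induced loss-of-function mutation in Nell1, the gene of a secreted protein with known roles in bone and cartilage. A Nell-1+/6R mouse carries 1 working copy in every cell of the body, so the change is confined neither to astrocytes nor to the brain, and no mouse without working Nell1 was included. Each library held 10834905 to 16016317 counts on genes, and 1.26% to 1.43% of them fell on the members. Nell1 itself averaged 36.5 ± 4.55 CPM, the counts of a gene scaled to a common library size, among WT mice against 19.1 ± 1.77 CPM among their Nell-1+/6R littermates (SD, n = 6 each), and the genotypes did not overlap.

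Astrocytes are the glial cells that surround synapses and blood vessels. They remove glutamate from the synaptic cleft and turn it into glutamine, take up the potassium that active neurons release, move water at the endfeet that sheathe vessels, and share ions and metabolites with each other through gap junctions. They are also the main brain source of several secreted lipid carriers and matrix proteins, and they hold metallothioneins, small cysteine-rich proteins that bind zinc and copper. Reactive astrocytes raise intermediate filament genes such as Gfap.

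Detection of the members was looked at first, which does not show which cells their reads came from. Aqp4, Gfap, Aldh1l1, Slc1a3 and the other defining markers were detected in each of the 12 libraries, and the member with the fewest reads, Fabp7, still had 181 to 294 counts per mouse. In the classification used here, 15 of the 31 are largely restricted to astrocytes in the adult brain. The other 16, among them Apoe, Clu, Cst3, S100b and the metallothioneins, are also made by microglia, oligodendrocytes, vessels, choroid plexus or neurons. Since the libraries were made from whole tissue, fewer astrocytes and less RNA per astrocyte cannot be told apart in any value below.

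Levels between genes were compared as CPM per kilobase of exon (RPKM). Apoe, the lipid carrier that astrocytes secrete, was the highest at 1026 ± 65.5 RPKM in WT and 1010 ± 109 RPKM in Nell-1+/6R mice (n = 6 each). Sparcl1, a secreted matrix protein that promotes synapse formation, followed at 610 ± 7.0 RPKM in WT. Clu, a secreted chaperone, at 485 ± 43.6 RPKM, Cst3, a secreted protease inhibitor, at 470 ± 53.1 RPKM, and Glul, the enzyme that makes glutamine from glutamate, at 464 ± 21.3 RPKM in WT did not differ beyond their spread. Mt3 (405 ± 33.3 RPKM in WT) and Mt1 (328 ± 38.3 RPKM) came next and stood above Mt2 (183 ± 23.3 RPKM). At the other end were Aqp4, the water channel of the endfeet, at 14.5 ± 2.32 RPKM, Sox9, a transcription factor of the astrocyte lineage, at 11.4 ± 1.81 RPKM and Kcnj16, a potassium channel subunit, at 6.28 ± 0.989 RPKM in WT. The summed CPM of the 31 genes was 13057, 13383 and 14147 (lowest, median and highest) in WT and 12810, 13514 and 13740 in Nell-1+/6R mice. The ranges of the sum overlapped.

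**Figure D1:**
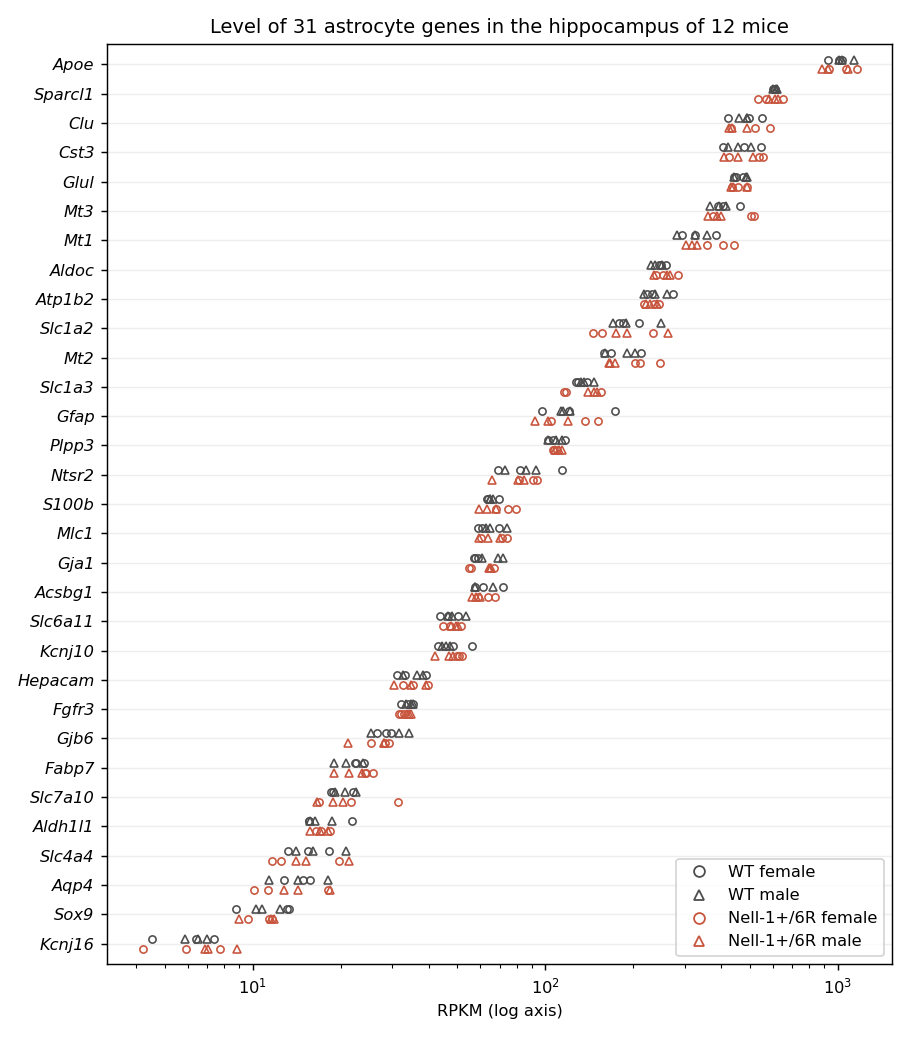
Level of each of the 31 genes in each of the 12 mice in RPKM on a log axis, ordered by the WT mean. Circles are females, triangles are males, grey is WT and red is Nell-1+/6R. The genotypes overlap for each of the 31 genes, from Apoe near 1026 RPKM to Kcnj16 near 6.28 RPKM.

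The first comparison asked whether loss of a working Nell1 copy was accompanied by a change of these genes. None of the 31 had an unadjusted p under 0.05 in edgeR's quasi-likelihood test with sex in the model, against 3.26% of the 17937 genes tested. With a 1.5-fold change asked as well the count was 0 of 31 against 1.46% of genes, and after Benjamini-Hochberg adjustment it was 0 of 31 against 0.039%. The same count of 0 was found with limma-voom, with DESeq2 and with a replicate block. No member had genotypes that did not overlap in CPM, against 0.151% of genes. The log2 fold changes, Nell-1+/6R minus WT, ran from -0.13 to 0.12 with a median of -0.01, beside a median of -0.001 over all genes tested, and 15 were positive and 16 negative. The 95% interval of each of the 31 lay inside a 1.5-fold change in either direction, and that of 25 lay inside a 1.25-fold change. Of the 17937 genes tested, 12449 and 8418 had such intervals. Without male WT mouse 1 the count was 1, Mt1, with an unadjusted p of 0.0486, against 3.64% of all genes in that fit.

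**Figure D2:**
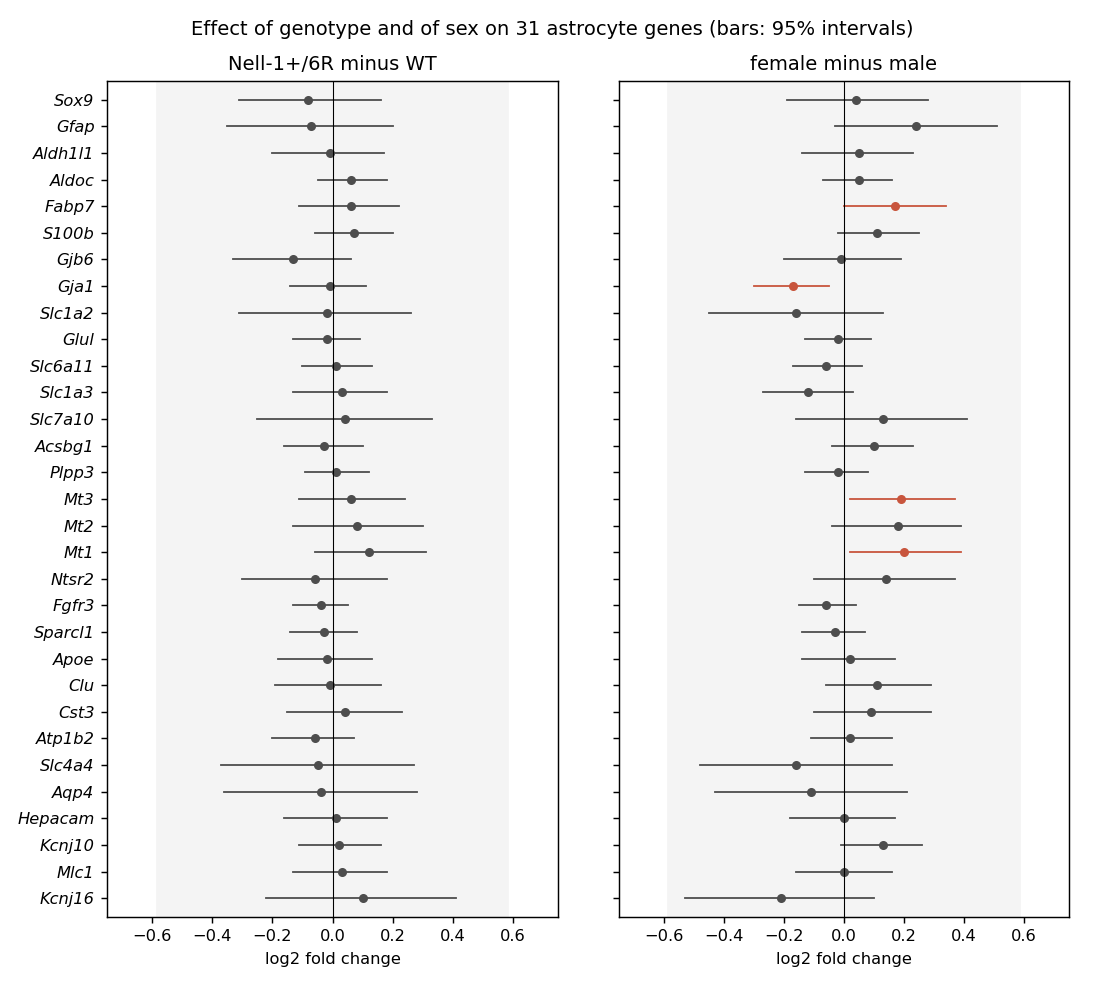
Log2 fold change of each gene by genotype (left, Nell-1+/6R minus WT) and by sex (right, female minus male), grouped by role. Points are edgeR estimates, bars are 95% intervals, the grey band is a 1.5-fold change either way, and red marks an unadjusted p under 0.05. By genotype no interval leaves the band and none is red. By sex 4 genes are red and none leaves the band.

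Among the genes of cell identity, Gfap, the intermediate filament that rises in reactive astrocytes, was at 398, 481 and 705 CPM among WT and at 377, 457 and 617 CPM in Nell-1+/6R mice (lowest, median and highest of 6). The ranges overlapped, and the log2 fold change was -0.07 (95% interval -0.35 to 0.20). Aldh1l1, a folate enzyme widely used as a pan-astrocyte marker, differed by -0.01 (-0.20 to 0.17) and Sox9 by -0.08 (-0.31 to 0.16). S100b, a calcium-binding protein, differed by 0.07 (-0.06 to 0.20), Aldoc, the brain form of aldolase, by 0.06 (-0.05 to 0.18), and Fabp7, a fatty acid carrier also found in radial glia, by 0.06 (-0.11 to 0.22). None of the 6 identity genes passed the test.

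The glutamate and amino acid carriers were as close. Slc1a2 (Entrez 20511, GRCm38 chr2:102658239-102790784, plus strand), the glutamate transporter GLT-1 that clears most synaptic glutamate, was at 2055, 2257 and 3012 CPM among WT and at 1766, 2210 and 3189 CPM in Nell-1+/6R mice. The Nell-1+/6R range was wider than the WT range at both ends, and the log2 fold change was -0.02 (-0.31 to 0.26). Slc1a3, the companion transporter GLAST, differed by 0.03 (-0.13 to 0.18) and Glul by -0.02 (-0.13 to 0.09), although 14.2% of the 50-base stretches of Glul also occur in a pseudogene or another gene, so its reads are less certain. Slc6a11, a GABA transporter of astrocytes, differed by 0.01 (-0.10 to 0.13). Slc7a10, which carries glycine and D-serine, differed by 0.04 (-0.25 to 0.33), and its reads can overlap Lrp3 on the opposite strand.

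Of the connexins, Gjb6 (connexin 30) had the smallest genotype p of any member. It was at 53.6, 61.3 and 72.3 CPM among WT and at 44.6, 59.4 and 61.6 CPM in Nell-1+/6R mice. The ranges overlapped, 1 male Nell-1+/6R mouse was the lowest of the 12, and the log2 fold change of -0.13 (-0.33 to 0.06) had an unadjusted p of 0.161. Without male Nell-1+/6R mouse 3, the lowest mouse, it was -0.069. Gja1 (connexin 43), the main gap junction protein of astrocytes, differed by -0.01 (-0.14 to 0.11).

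Genes of water, potassium and ion balance gave no call. Aqp4 was at 67.3, 86.1 and 107 CPM among WT and at 59.5, 80.0 and 109 CPM in Nell-1+/6R mice, a log2 fold change of -0.04 (-0.36 to 0.28). Kcnj10, the Kir4.1 channel that buffers potassium, differed by 0.02 (-0.11 to 0.16), and its partner subunit Kcnj16 by 0.10 (-0.22 to 0.41), the upper bound being the highest of any member. Slc4a4, a sodium and bicarbonate cotransporter, differed by -0.05 (-0.37 to 0.27) and Atp1b2, a sodium pump subunit, by -0.06 (-0.20 to 0.07). Mlc1 and Hepacam, membrane proteins that work together at astrocyte junctions, differed by 0.03 (-0.13 to 0.18) and 0.01 (-0.16 to 0.18).

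The remaining members were close to 0 as well. The receptors Fgfr3, for fibroblast growth factors, and Ntsr2, for neurotensin, differed by -0.04 (-0.13 to 0.05) and -0.06 (-0.30 to 0.18). Ntsr2 reads can overlap Lpin1 on the opposite strand. Acsbg1, which activates long fatty acids, differed by -0.03 (-0.16 to 0.10) and Plpp3, a lipid phosphatase, by 0.01 (-0.09 to 0.12). The secreted proteins Apoe, Clu, Sparcl1 and Cst3 lay between -0.03 and 0.04. Mt1, Mt2 and Mt3 differed by 0.12 (-0.06 to 0.31), 0.08 (-0.13 to 0.30) and 0.06 (-0.11 to 0.24).

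The 3 metallothionein genes lie beside each other on chromosome 8, and they are described further because the calls by sex and within females below include them. Their promoter windows, 250 bases before to 50 bases after a start in RefSeq (GRCm38.p6, plus strand, chr8:94178839-94179138 for Mt1, chr8:94172368-94172667 for Mt2 and chr8:94152357-94152656 for Mt3), are shown with the core of the metal response element in capitals. That core is the motif bound by Mtf1, the zinc sensor that switches metallothioneins on. For Mt2 and Mt3 the start is that of the gene, at 94172618 and 94152607. The Mt1 gene begins at 94178883 in RefSeq, so most of its window lies inside the gene and is anchored otherwise. The letters searched on both strands were TGCACNC or TGCGCNC.
Mt1: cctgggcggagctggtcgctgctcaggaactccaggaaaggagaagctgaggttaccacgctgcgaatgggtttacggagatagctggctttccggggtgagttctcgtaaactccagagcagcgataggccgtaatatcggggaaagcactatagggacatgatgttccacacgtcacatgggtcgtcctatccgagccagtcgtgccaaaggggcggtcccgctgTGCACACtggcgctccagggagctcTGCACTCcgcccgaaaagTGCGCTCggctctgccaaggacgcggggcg
Mt2: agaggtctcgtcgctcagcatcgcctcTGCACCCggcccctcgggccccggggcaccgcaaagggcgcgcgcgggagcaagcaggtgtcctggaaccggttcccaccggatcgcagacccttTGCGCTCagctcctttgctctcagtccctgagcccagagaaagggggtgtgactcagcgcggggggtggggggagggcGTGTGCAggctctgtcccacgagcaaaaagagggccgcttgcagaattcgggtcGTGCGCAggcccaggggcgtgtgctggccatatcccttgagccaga
Mt3: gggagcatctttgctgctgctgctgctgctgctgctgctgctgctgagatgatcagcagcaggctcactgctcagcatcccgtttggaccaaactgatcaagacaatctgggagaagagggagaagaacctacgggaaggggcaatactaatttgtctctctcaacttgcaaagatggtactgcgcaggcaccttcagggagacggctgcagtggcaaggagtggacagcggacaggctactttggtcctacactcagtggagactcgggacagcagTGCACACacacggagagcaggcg
The windows of Mt1, Mt2 and Mt3 held 3, 4 and 1 matches. Of 32851 promoter windows of the same length, 25.7% held at least 1 match and 1.97% held 3 or more. A window was found for 26 of the 31 members, and 11 of these held a match, including Aldh1l1, Fgfr3, Glul, Kcnj10, Kcnj16, Slc4a4, Slc6a11 and Slc7a10. Not 1 stretch of 50 bases of Mt1, Mt2 or Mt3 transcripts occurs in another gene, so reads were not split between them on that account.

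The second comparison set the 6 females against the 6 males with genotype in the model. Of the 31 genes, 4 (12.9%) had an unadjusted p under 0.05 against 4.73% of all genes, 3 were higher in females (2.86% of genes) and 1 was lower (1.87%). None passed adjustment (0.0335% of genes), where the smallest adjusted p of a member in edgeR was 0.868. With a 1.5-fold change asked beside the unadjusted p the count was 0 of 31, against 1.35% of genes. DESeq2 called 3 of the 4 and limma-voom 4 at an unadjusted p under 0.05. No gene of the 31 had sexes that did not overlap, against 0.173% of all genes.

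Gja1 (Entrez 14609, chr10:56377300-56390419, plus strand) was the member lower in females. It was at 169, 176 and 205 CPM in females and at 187, 199 and 220 CPM in males. All but 1 female lay below the lowest male. The log2 fold change was -0.17 (95% interval -0.30 to -0.05) with an unadjusted p of 0.0107, and Gja1 had an unadjusted p under 0.05 in each of the 12 fits that left out 1 mouse.

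Fabp7 was at 18.0, 19.4 and 20.8 CPM in females and 15.2, 17.0 and 19.1 CPM in males, a log2 fold change of 0.17 with an unadjusted p of 0.0461. Mt1 was at 161, 204 and 243 CPM in females and at 155, 177 and 196 CPM in males. Mt3 was at 201, 233 and 278 CPM in females and at 193, 209 and 222 CPM in males. For all 3 genes the highest values belonged to females and the ranges of the sexes overlapped. The log2 fold changes were 0.20 for Mt1 (0.02 to 0.39, unadjusted p 0.0347) and 0.19 for Mt3 (0.02 to 0.37, unadjusted p 0.0320). When single mice were left out, Fabp7 had an unadjusted p under 0.05 in 3 of the 12 fits, Mt1 in 5 and Mt3 in 6. Mt2 stood at 0.18 (-0.04 to 0.39) and Gfap at 0.24 (-0.03 to 0.51), and neither passed.

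The count by sex turned on which mice were in the fit. It was 1, Gja1 alone, without female Nell-1+/6R mouse 1, female Nell-1+/6R mouse 2, female WT mouse 2, male Nell-1+/6R mouse 1 or male Nell-1+/6R mouse 3. It was 2 without male WT mouse 2 or male WT mouse 3, and 6 without female WT mouse 3, where 7.65% of all genes had an unadjusted p under 0.05. In the fits with a count of 1 or 2 that share was 3.35% to 4.86%. Of the 15 astrocyte-restricted members, 0 had an unadjusted p under 0.05 for sex.

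The third comparison asked whether the genotype effect differed between females and males. The interaction had an unadjusted p under 0.05 for 1 of 31 members (3.23%), Mt2, beside 3.09% of all genes, and 0 members and 0 of all genes passed adjustment in edgeR. DESeq2 called 3 genes after adjustment, none of them a member. With a 1.5-fold change asked as well the count was 0 of 31, against 2.17% of genes. Mt2 (Entrez 17750, chr8:94172618-94173567, plus strand) was at 85.9, 109 and 81.4 CPM in the WT females and 108, 126 and 104 CPM in the Nell-1+/6R females. It was at 104, 97.4 and 81.9 CPM in the WT males and 85.1, 88.8 and 84.7 CPM in the Nell-1+/6R males. In females 2 WT mice lay below all Nell-1+/6R mice and the third lay among them, and in males the Nell-1+/6R values lay inside the WT range. The difference between the genotype effects was 0.42 on the log2 scale (95% interval 0.06 to 0.79, unadjusted p 0.0271).

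Within females 3 of 31 members (9.68%) had an unadjusted p under 0.05 for genotype, against 2.84% of all genes, all higher in Nell-1+/6R mice (1.24% of genes). These were Mt2 (0.29, 95% interval 0.03 to 0.55), Mt1 (0.27, 0.02 to 0.51) and S100b (0.18, 0.01 to 0.35). Mt1 was at 178, 211 and 161 CPM in WT females and 223, 243 and 197 CPM in Nell-1+/6R females. S100b was at 94.4, 103 and 93.7 CPM in WT females and 111, 118 and 101 CPM in Nell-1+/6R females. In both genes the lowest Nell-1+/6R female lay below the highest WT female. Mt3 differed by 0.15 (-0.09 to 0.40) and did not pass. None passed adjustment (0.0167% of genes), and the smallest adjusted p of a member within females was 0.998 in edgeR. Within males 0 of 31 had an unadjusted p under 0.05 against 3.38% of genes, and Mt1, Mt2 and S100b were at -0.02, -0.13 and -0.04. Of these genes only Mt2 had an interaction p under 0.05; that of Mt1 was 0.0944 and that of S100b 0.0716, both unadjusted.

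**Figure D3:**
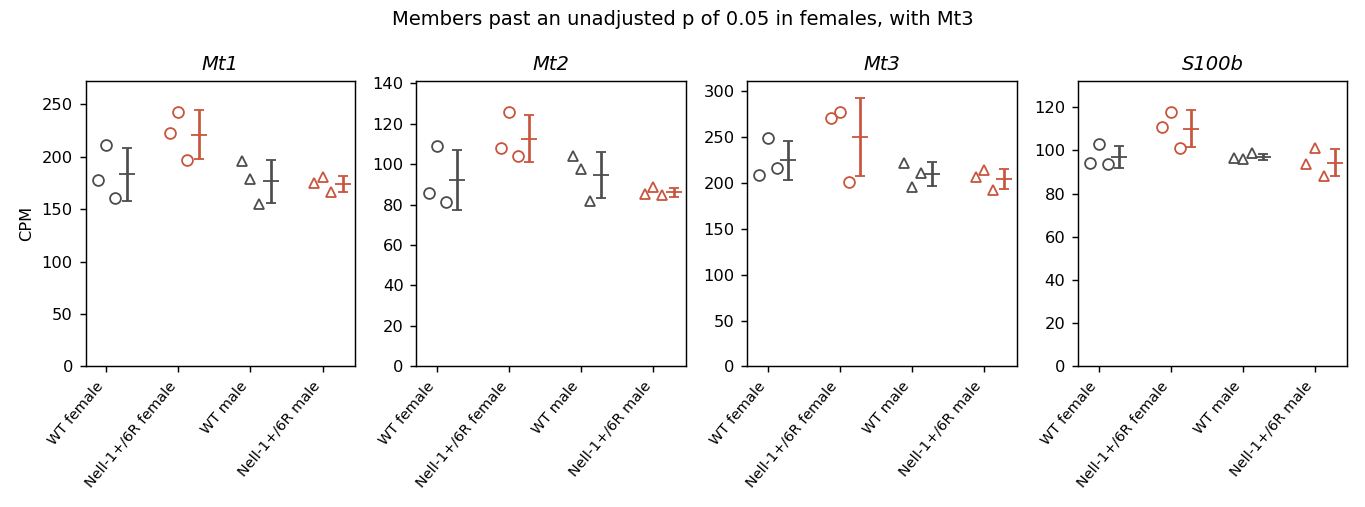
CPM of Mt1, Mt2, Mt3 and S100b in each mouse of the 4 groups, on axes from 0. Open symbols are mice (circles female, triangles male, grey WT, red Nell-1+/6R), and bars beside them are mean ± SD of 3 mice. Mt2 lies between 104 and 126 CPM in Nell-1+/6R females and between 84.7 and 88.8 CPM in Nell-1+/6R males.

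These calls were sensitive to single mice. The interaction count was 0 without female Nell-1+/6R mouse 2, female WT mouse 1, female WT mouse 3, male Nell-1+/6R mouse 1, male WT mouse 1 or male WT mouse 2. It was 2 without male WT mouse 3, 3 without female WT mouse 2 or male Nell-1+/6R mouse 2, and 7 without female Nell-1+/6R mouse 3 (Slc1a3, S100b, Apoe, Mt1, Mt2, Mt3 and Slc7a10), where 10.3% of all genes also had an unadjusted p under 0.05. That share was 2.5% to 3.42% in the 6 fits with a count of 0, 2.99% without male WT mouse 3, 4.95% without female WT mouse 2 and 3.21% without male Nell-1+/6R mouse 2. The count within females was 0 without female Nell-1+/6R mouse 2, female WT mouse 1 or female WT mouse 3, 1 without female Nell-1+/6R mouse 1 and 7 without female Nell-1+/6R mouse 3, where 12.8% of all genes had such a p. In the other 4 of these fits that share was 1.92% to 3.47%. Within males it was 1 without male Nell-1+/6R mouse 2 (Apoe, 3.3% of all genes) or male WT mouse 3 (Gjb6, 3.2%).

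Markers of choroid plexus, a secretory epithelium next to the hippocampus that also makes metallothioneins, varied widely between single mice. The summed CPM of 8 such markers was 2084, 785 and 51.9 in WT females, 5150, 60.5 and 42.0 in Nell-1+/6R females, 129, 130 and 4633 in WT males and 76.9, 65.9 and 44.9 in Nell-1+/6R males. It was high in 4 mice and at 42.0 to 130 CPM in the other 8. Of the 8 markers, 4 (Ttr, Folr1, Kcnj13 and Slc4a5) had an unadjusted interaction p under 0.05, against 3.09% of all genes, none passed adjustment, and none was at 0 in all mice. In fits without the 4 mice with high sums in turn, from the highest sum to the lowest, the interaction of Mt2 was 0.452, 0.515, 0.377 and 0.563 on the log2 scale, with unadjusted p of 0.0301, 0.00688, 0.0649 and 0.00296. The p was also above 0.05 without each of 5 mice with low sums, named above. The part of choroid plexus RNA in the Mt2 values was not tested.

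The members were next followed between mice of the same group. With the means of the 4 groups removed, the SD of a member over mice had a median of 0.153 on the log2 scale, beside 0.137 over 9677 other genes with a mean of at least 10 CPM. The members did not vary as 1 block. Instead many of them fell along a gradient that many of the 9677 other genes shared. This gradient was followed here by the long-transcript balance of a mouse, the mean log2 level of 1936 genes with exons of 5627 bases or more minus that of 1937 genes with 2000 bases or fewer, with the members left out. The first component of the 9677 genes held 54.4% of the variance within groups and had an absolute r of 0.98 with this balance.

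The members with r above 0.5 are given first. After removal of the group means, r over the 12 mice was 0.97 for Slc1a2, 0.95 for Slc4a4, 0.91 for Aqp4, 0.83 for Slc1a3, 0.80 for Kcnj16, 0.57 for Sparcl1 and 0.55 for Gja1. These are descriptions with no test, since all values of a mouse come from 1 library and share its depth and composition. Slc1a2 was highest in male Nell-1+/6R mouse 3 at 3189 CPM, male WT mouse 2 at 3012 CPM and female Nell-1+/6R mouse 3 at 2823 CPM, the 3 mice with the highest balance (0.306, 0.232 and 0.206 on the log2 scale). It was lowest in female Nell-1+/6R mice 1 and 2, at 1766 and 1894 CPM, which had the lowest balance (-0.337 and -0.292). Aqp4 and Slc4a4 were also lowest in these 2 mice, with Aqp4 at 66.5 and 59.5 CPM and Slc4a4 at 99.0 and 92.7 CPM.

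Other members went the opposite way. The value of r was -0.94 for Cst3, -0.92 for Apoe, -0.86 for Mt3, -0.85 for Mlc1, -0.84 for Clu, -0.77 for S100b, -0.76 for Slc7a10, -0.75 for Gfap and -0.74 for Hepacam. Cst3 was highest in female Nell-1+/6R mouse 1 at 479 CPM and lowest in female WT mouse 3 at 349 CPM and male Nell-1+/6R mouse 3 at 352 CPM. Apoe was lowest in male Nell-1+/6R mouse 3 at 1386 CPM, the mouse with the most Slc1a2, but male WT mouse 2, the next in Slc1a2, had 1583 CPM of Apoe, near the middle of the 12. After removal of the group means r between Slc1a2 and Apoe was -0.87. Slc1a2 and Slc4a4 had an r of 0.97 with each other, Mt1 and Mt2 one of 0.96, while Kcnj10 and Kcnj16, which form 1 channel, had one of -0.29.

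In all, 7 members (22.6%) had r above 0.5 and 16 (51.6%) below -0.5, beside 29.9% and 38.7% of the 9677 other genes. The 7 had a median exon length of 4163 bases and the 16 one of 2372 bases. Spearman's rho of r against exon length was 0.64 over the members and 0.55 over the other genes, and against GC content -0.71 and -0.68, both across genes, which are not independent. The balance had a mean of -0.069 in females and 0.069 in males, and of 0.024 in WT and -0.024 in Nell-1+/6R mice, with ranges that overlapped in both splits. Whether dissection, RNA quality or library preparation set the balance was not tested.

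**Figure D4:**
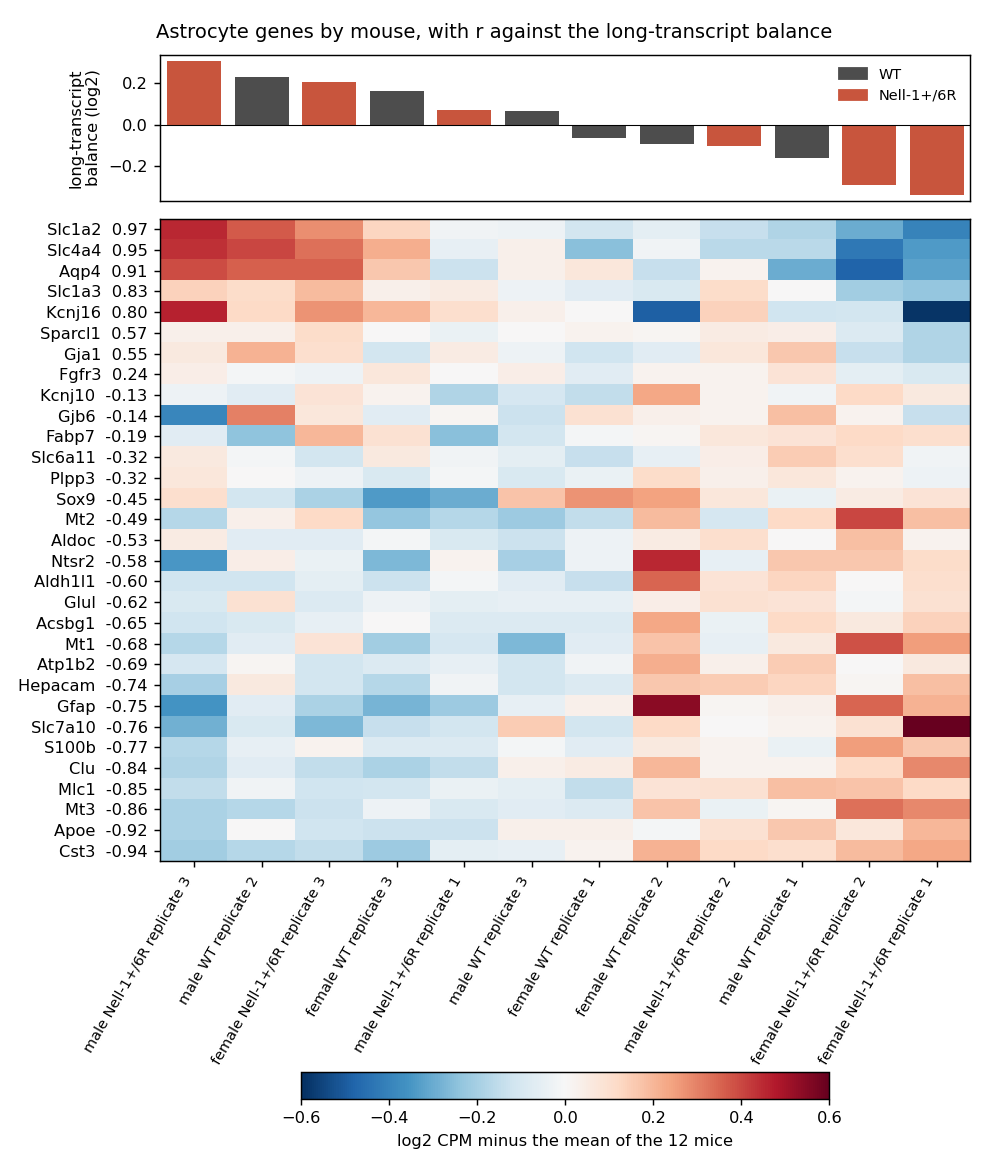
Upper panel, long-transcript balance of each mouse on the log2 scale (grey WT, red Nell-1+/6R), from 0.306 to -0.337. Lower panel, log2 CPM of each gene minus its mean over the 12 mice, mice in the order of the balance and genes in the order of r, which is printed beside each name and was computed after removal of the group means. Colours end at 0.6 either way. Genes from Slc1a2 to Gja1 go from red to blue, and those from Ntsr2 to Cst3 from blue to red.

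**Figure D5:**
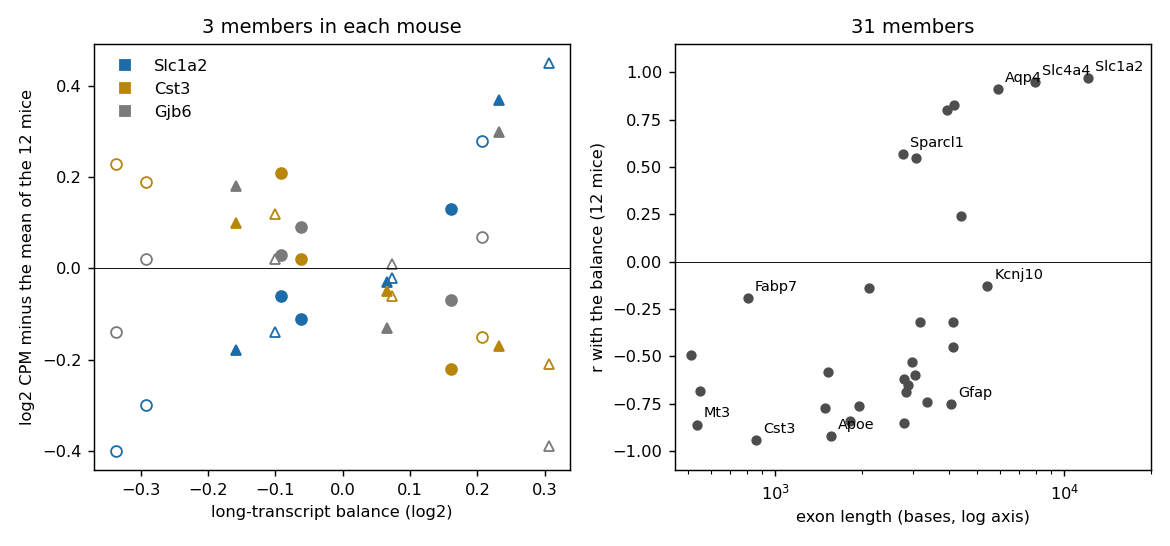
Left, log2 CPM minus the mean of the 12 mice for Slc1a2, Cst3 and Gjb6 against the long-transcript balance (circles female, triangles male, filled WT, open Nell-1+/6R). Slc1a2 rises and Cst3 falls along the axis, and Gjb6, with an r of -0.14, does neither. Right, r with the balance against exon length on a log axis for the 31 genes, with Slc1a2, Slc4a4 and Aqp4 at the long end above 0.9.

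When the balance was added to the model, a choice made after the data had been seen, the intervals of the members that followed it narrowed. The standard error of the genotype effect of Aqp4 went from 0.150 to 0.0643. The genotype count was still 0 of 31, against 5.68% of all genes. The sex count was 1 of 31, Gja1 (-0.14, unadjusted p 0.0132), against 5.91% of genes, while Mt1 and Mt3 went to 0.12 and 0.10 with unadjusted p of 0.0805 and 0.0590. Mt2 was the only member with an interaction p under 0.05, at 0.36 and 0.0283 unadjusted, against 4.23% of genes, and within females S100b, Mt1 and Mt2 again had p under 0.05, against 4.22%.

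Of 34 further genes of astrocytes, 0 had an unadjusted p under 0.05 for genotype, and their median log2 fold change was -0.01. By sex 6 of the 34 had one, against 4.73% of all genes, and none passed after adjustment. Of these 1 was higher and 5 were lower in females, and the median of the 34 was -0.06, beside 0.02 for the 31 members. Itih3 was higher in females (0.19), and Dio2, the enzyme that activates thyroid hormone (-0.42), Etnppl (-0.80), Nfib (-0.13), Id4 (-0.20) and Gpc5 (-0.18) were lower. The genotype count was 4 without female Nell-1+/6R mouse 1 and 1 without female WT mouse 3, male Nell-1+/6R mouse 1, male Nell-1+/6R mouse 3 or male WT mouse 1, and the sex count was 2 without female WT mouse 2. Of all genes 4.84% had such a genotype p without female Nell-1+/6R mouse 1 and 2.55% to 4.46% in the fits with a count of 1, and 3.39% had such a sex p without female WT mouse 2. In a list of 26 metabolic and transport genes, 2 were lower in Nell-1+/6R mice at an unadjusted p under 0.05, Gpc4 (-0.23), a synapse-promoting proteoglycan, and Aqp9 (-0.50), against 2.2% of all genes, and neither passed adjustment. By sex Slc6a9 and Pygm were higher in females at an unadjusted p under 0.05 (0.23 and 0.20).

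Genes of reactive astrocytes were set beside Gfap. Over all genes 2.2% were lower and 1.06% higher in Nell-1+/6R mice at an unadjusted p under 0.05. Of 12 pan-reactive genes 3 were lower, namely Vim (-0.37), Aspg (-0.36) and Cp (-0.61). Of 12 genes of the neurotoxic set, Serping1 (-0.79) and Fbln5 (-0.82) were lower, and of 11 tested genes of the trophic set 0 had such a p. None of these genes passed adjustment. The neurotoxic set summed to 151, 159 and 166 CPM (lowest, median, highest) in WT and to 136, 148 and 150 CPM in Nell-1+/6R mice. These ranges did not overlap, while those of the pan-reactive and trophic sums did. The sums were not tested. Vim, Serping1 and Fbln5 are also made by fibroblasts and vessel walls, and markers of those cells went the same way. Of 10 leptomeningeal fibroblast markers 7 were lower in Nell-1+/6R mice at an unadjusted p under 0.05, with summed levels of 117, 221 and 394 CPM in WT and 69.1, 103 and 372 CPM in Nell-1+/6R mice (lowest, median, highest). Of 8 mural cell markers 5 were lower, with sums of 135, 169 and 227 CPM and of 114, 133 and 165 CPM. No marker of either list was at 0 in all mice. Their part in the lower reactive genes was not tested.

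In the remaining lists, microglia (10 genes), oligodendrocyte (10), oligodendrocyte precursor (8), choroid plexus (8), ependymal (8), neural progenitor (8) and metal and glucocorticoid response (13) had 0 genes with an unadjusted p under 0.05 for genotype. Tek was the 1 of 8 endothelial genes (-0.33), Spink8 (0.25) and Fibcd1 (0.23) were the 2 of 10 principal neuron genes, and Sst (0.20) and Pvalb (0.29) the 2 of 8 genes of GABAergic neurons with such a p, against 3.26% of all genes, and none of these passed adjustment. In the metal and glucocorticoid list Mtf1 and Slc30a1, which share the metal response with the metallothioneins, differed by 0.04 and 0.08 between the genotypes, and Sgk1, Sult1a1 and Nfkbia had an unadjusted interaction p under 0.05, 3 of 13 against 3.09% of all genes, and none passed adjustment. The summed oligodendrocyte markers ran from 3244 to 7066 CPM, and their genes had a median r of -0.74 with the long-transcript balance, microglial genes one of -0.68.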

How the data were processed

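RNA of the hippocampus from 12 mice was measured by sequencing. The authors aligned reads to mm10 with HISAT2 2.1.0 and counted them per gene with featureCounts 2.0.1, as their processing notes list; the study's methods name another featureCounts version. The deposited values are raw counts per Entrez gene ID, not normalized or pooled, and the sources used here do not give the strand setting. Columns were matched to mice by short sample name, with 0 unmatched. WT titles include "Het"; the group was taken from the genotype field, which gives WT.

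Genes with at least 0.2 CPM in 2 mice (17937) were tested with edgeR 4.0.16 (R 4.3.3, limma 3.58.1), TMM factors and sex plus genotype as terms; a model of 4 groups gave the interaction and the effect within each sex. P-values were adjusted over all genes tested by Benjamini-Hochberg. The threshold was 0.05, as an unadjusted p, alone or with a 1.5-fold change, or adjusted. Intervals are 95% and rest on the spread between mice. RPKM used union exon lengths of GENCODE M21 transcripts. Log2 CPM had a prior count of 2. The fit was tested on simulated data. Alternatives were DESeq2 1.42.0, DESeq2 size factors, limma-voom, other filters, the other factor left out, a replicate block, each mouse left out, and, added after the data were seen, the balance covariate. Python 3.11.15 (pandas 2.3.3, numpy 2.4.6, scipy 1.17.1, matplotlib 3.10.9) made the tables and figures. The members and gene lists were chosen with earlier results of these data known. Every member is named; of other lists, genes with an unadjusted p under 0.05, some of which are not reported here.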

Additional observations from a re-analysis of the deposited data

Results flagged for a closer look

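The genotype effect on Mt2 differed between the sexes by 0.42 on the log2 scale, Nell-1+/6R minus WT being higher in females than in males, with an unadjusted p of 0.0271 in edgeR's quasi-likelihood test of the interaction. It did not pass adjustment over all genes tested (adjusted p 0.986). The value ran from 0.34 to 0.56 when single mice were left out, and 6 of the 12 such fits kept a p under 0.05. Choroid plexus marker sums were 5150 CPM in 1 Nell-1+/6R female, 4633 CPM in 1 WT male and 2084 and 785 CPM in 2 WT females. The part of choroid plexus RNA in the Mt2 values was not tested. Of 62 sets of 6 mice, each a member in a genotype, 2 held a mouse that stood apart from the other 5 by Dixon's criterion on CPM, and 0 did on log2 CPM; chance would give about 1 in 20. Gfap was at 705 CPM in female WT mouse 2, and Slc7a10 was at 61.3 CPM in female Nell-1+/6R mouse 1. The genotype effect without that mouse was 0.029 for Gfap and -0.106 for Slc7a10 on the log2 scale, neither of them called.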

How the results depend on the processing

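For genotype the count of members at an unadjusted p under 0.05 stayed at 0 under all 7 other ways of processing that kept the 12 mice and under the balance covariate. It ran from 0 to 1 when single mice were left out. For sex the 4 became 1 with the balance covariate, 0 among astrocyte-restricted members alone, and 1 to 6 without single mice. Without single mice the interaction count ran from 0 to 7, from 0 to 1 with a 1.5-fold change, the count within females from 0 to 7 and within males from 0 to 1. For other astrocyte genes the genotype count was 1 with the balance covariate, against 5.68% of all genes, and 0 to 4 without single mice. Their sex count was 2 to 8 without single mice. The 8 came without female Nell-1+/6R mouse 3, where 9.45% of all genes had an unadjusted p under 0.05 for sex. Same-numbered mice of different groups (18 pairs) had r from -0.2 to 0.35, 5 of them above 0.1. The 36 pairs with other numbers had r from -0.36 to 0.36, 11 of them above 0.1. Each mouse stands in several pairs and mice also differ along the balance, so these r cannot decide whether the numbers pair the mice. With the replicate block the interaction count was 3 (S100b, Mt1 and Mt2), where 3.69% of all genes had such a p against 3.09% without the block. The genotype count of other astrocyte genes was 1 with the block, against 3.27% of all genes.

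Among the genotype and sex effects of the 31 members, directions changed only for values that had not been called and that were not called after the change (smallest unadjusted p 0.17). With the balance covariate the genotype effects became 0.009 for Aqp4, 0.02 for Slc1a2, -0.001 for Mlc1, -0.022 for Hepacam and -0.025 for Slc7a10, and the sex effects 0.067 for Aqp4, -0.014 for Aldh1l1, 0.017 for Slc1a2, -0.021 for Sox9, -0.026 for Atp1b2, 0.019 for Slc4a4, -0.063 for Apoe, -0.016 for Cst3 and -0.024 for Slc7a10. The sex effect of Gjb6 was 0.002 with limma-voom and 0.004 with the replicate block, and that of Mlc1 was 0 without genotype in the model. When single mice were left out, genotype effects ran from -0.063 to 0.008 for Acsbg1, -0.051 to 0.069 for Aldh1l1, -0.069 to 0.015 for Apoe, -0.161 to 0.042 for Aqp4, -0.069 to 0.028 for Clu, -0.011 to 0.086 for Cst3, -0.16 to 0.029 for Gfap, -0.058 to 0.015 for Gja1, -0.035 to 0.05 for Hepacam, -0.018 to 0.068 for Kcnj10, -0.008 to 0.067 for Mlc1, -0.135 to 0.031 for Ntsr2, -0.004 to 0.04 for Plpp3, -0.121 to 0.045 for Slc1a2, -0.035 to 0.064 for Slc1a3, -0.171 to 0.018 for Slc4a4, -0.013 to 0.041 for Slc6a11 and -0.106 to 0.107 for Slc7a10. Sex effects ran from -0.037 to 0.081 for Aldh1l1, -0.03 to 0.048 for Apoe, -0.021 to 0.046 for Atp1b2, -0.072 to 0.047 for Gjb6, -0.047 to 0.032 for Hepacam, -0.036 to 0.032 for Mlc1, -0.018 to 0.194 for Slc7a10 and -0.008 to 0.117 for Sox9. The cause of these changes was not tested. The lowest count of a member in a mouse was 181 (Fabp7).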
